A study of Mus musculus with 2 samples.

Results

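"Diverse" is one of 26 cell type names that the authors gave to leukocytes sorted from mouse melanomas, and it names no lineage. Its members are the 481 cells that carry this name in the deposited cell table, of 10050 annotated cells in all. They comprise 270 of 5385 cells of the APOE4 library and 211 of 4665 cells of the APOE2 library. The APOE4 library came from human APOE4 knock-in mice, and the APOE2 library from human APOE2 knock-in mice. Both groups of mice carried a human APOE allele, and both received 100000 YUMM1.7 mouse melanoma cells, mixed with Matrigel, under the skin of the flank. Tumors were taken on day 19, and 10000 CD45+ DAPI- cells were sorted from each of 6 mice. The 60000 cells of a genotype were then pooled before 5000 were targeted for droplet sequencing. Each genotype is therefore 1 library in which the mice cannot be told apart, so no difference between genotypes could be tested. Every interval below covers counting error only.

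T cells carry the CD3 complex, of which Cd3e encodes a chain, and part of them become regulatory T cells under the transcription factor Foxp3, which restrain other lymphocytes. Monocytes enter tumors from the blood and become macrophages, which carry the high-affinity IgG receptor Fcgr1 and secrete the lysozyme Lyz2. A single cell is not known to run both programs in full. Transcripts of both under 1 barcode are seen where 2 cells share a droplet, where cells stay attached through sorting, where a phagocyte has taken up another cell, or where free RNA is captured. Macrophages clear dying cells through receptors such as Axl and Mertk and digest them in lysosomes, and T cells bind antigen-presenting cells through MHC and costimulatory pairs.

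The libraries held 37349222 UMIs in 5689 barcodes (APOE4) and 41207514 UMIs in 5063 barcodes (APOE2), with medians of 5560 and 7160 UMIs per annotated cell. The Diverse cells held 3334724 and 2550505 UMIs. Only 9 barcodes occurred in both matrices, 8 of them annotated in both libraries, and 2 of those 8 were named Diverse in at least 1 library. For comparison the authors' names were merged into T cells (CD4+, CD8+ and NKT cells, 910 in APOE4 and 430 in APOE2) and monocytes and macrophages (1549 and 1687). NK cells (744 and 247) and conventional and migratory dendritic cells (526 and 741) were the other classes used. Since the names come from clusters of these cells, every contrast of Diverse with another class is a description and carries no test.

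Diverse cells carried T cell and monocyte/macrophage transcripts under the same barcode. The 4 genes examined first were Cd3e (chromosome 9, 44998740 to 45009627), Foxp3 (chromosome X, 7573644 to 7595245), Fcgr1 (chromosome 3, 96282909 to 96293969) and Lyz2 (chromosome 10, 117277331 to 117282321; all in mm10, from GENCODE M21). Cd3e was detected in 69.6% of APOE4 and 56.4% of APOE2 Diverse cells, against 74.6% and 69.1% of T cells. In monocytes and macrophages, which should lack it, Cd3e was found in 2.19% and 2.07% of cells. Fcgr1 was detected in 93.0% and 80.1% of Diverse cells, in 84.6% and 74.7% of monocytes and macrophages and in 1.54% and 1.16% of T cells. Lyz2 was found in 97.0% and 94.3% of Diverse cells, and in 14.1% and 16.3% of T cells. Foxp3 was found in a smaller part, 16.3% and 43.6% of Diverse cells, and in 13.3% and 33.5% of T cells. Median depths behind these shares were 11780.5 and 11743 UMIs in Diverse cells, 7033 and 7895 in monocytes and macrophages, and 3510 and 3474 in T cells. Cd3e averaged 1.61 and 1.14 UMIs per Diverse cell against 1.58 and 1.32 per T cell, and Fcgr1 averaged 5.34 and 3.16 UMIs per Diverse cell against 4.50 and 2.80 per monocyte or macrophage. Lyz2 was lower, at 70.2 and 62.4 UMIs per Diverse cell against 92.2 and 103.6 per monocyte or macrophage.

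The pairing held cell by cell. Cd3e and Fcgr1 were detected together in 179 of 270 APOE4 Diverse cells (66.3%, 60.3 to 71.9) and in 97 of 211 APOE2 Diverse cells (46.0%, 39.1 to 52.9; exact Clopper-Pearson 95% intervals here and below). The pair was found in 1.10% and 1.16% of T cells and in 2.13% and 1.78% of monocytes and macrophages. With every cell thinned to 1500 UMIs the pair remained in 7.87% and 4.81% of Diverse cells, against 0.224% of APOE4 T cells and none of the APOE2 T cells. Cd3e with Lyz2 was found in 67.4% and 52.6% of Diverse cells, against 10.4% and 10.5% of T cells. Cd3e with C1qa, a complement gene of mature macrophages, was found in 33.3% and 31.8% of Diverse cells. Cd3e with Cd79a, a B cell receptor chain, was found in no Diverse cell of either library, which allows shares of up to 1.11% (APOE4) and 1.42% (APOE2) by the rule of 3 counts, and of 1.36% and 1.73% by the exact interval.

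Marker lists gave the same picture with less dropout than single genes. A list was called in a cell with at least 3 UMIs from at least 2 of its members. The T cell list holds 10 genes, 8 of them in the files, and the monocyte/macrophage list 10. Both lists were called in 245 of 270 APOE4 Diverse cells (90.7%, 86.6 to 93.9) and in 182 of 211 APOE2 Diverse cells (86.3%, 80.9 to 90.6). Among all other annotated cells the share was 3.36% and 3.21%. Thinned to 1500 UMIs, the shares were 42.3% and 28.4% in Diverse cells, against 0.628% and 0.584% in all other cells. Of the 742 annotated cells with both calls, 427 (57.5%) were named Diverse. The remaining 315 were spread over other names, with 44 in Mø cluster 1, 43 in Monocytic DCs, 38 in Mø cluster 2, 33 in cDC 2, 32 in CD8+ T cells and 25 in CD4+ T cells. Cells with 2 lineages were therefore not limited to the Diverse name. Over both libraries, the highest share of a name's own cells with both calls outside Diverse was 17.6%, in Ki67+ CD8+ T cells.

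**Figure D1:**
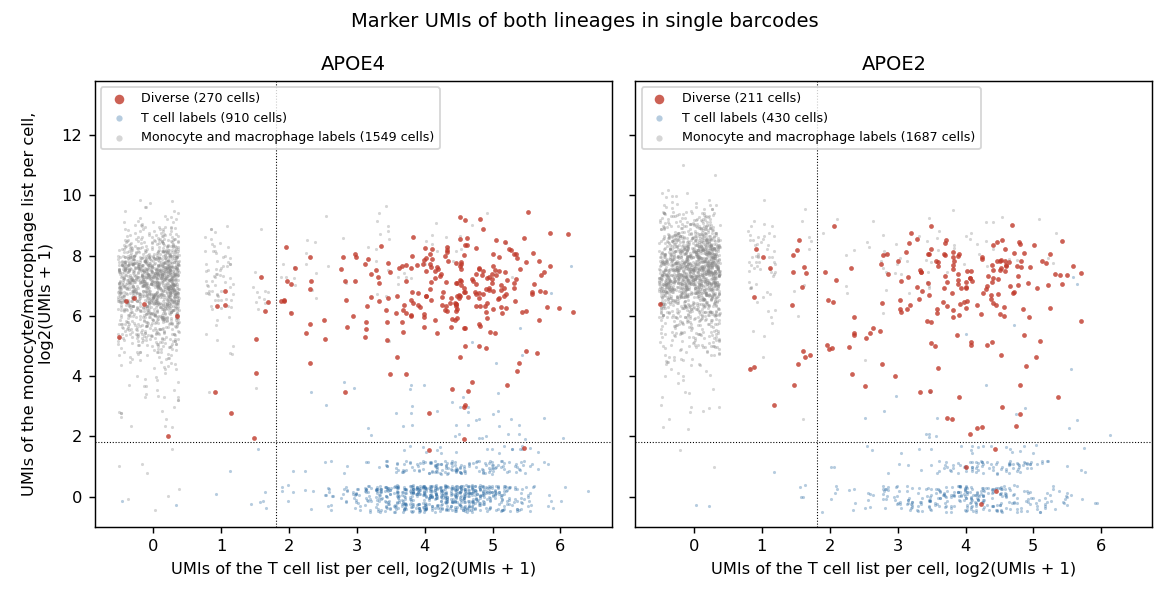
UMIs of the T cell list (x axis) and of the monocyte/macrophage list (y axis) in each cell, both as log2(UMIs + 1) with a small random offset, in APOE4 (left) and APOE2 (right). Dotted lines part cells with at least 3 UMIs of a list; 90.7% and 86.3% of Diverse cells (red) passed both list calls, whereas T cells (blue) and monocytes and macrophages (grey) mostly lay along 1 axis.

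The lymphocyte in most Diverse cells was a T cell, and the other lineages were few or absent. The T cell list was called in 91.9% (APOE4) and 89.1% (APOE2) of Diverse cells and the monocyte/macrophage list in 98.9% and 97.2%. The NK list was called in 57.4% and 21.8%, but several of its members (Klrd1, Gzma, Eomes) are also made by CD8+ T cells, and 334 CD8+ T cells outside Diverse had both the T and the NK call. Cells with NK and monocyte/macrophage calls and no T call numbered 17 of 270 and 13 of 211. The dendritic cell list was called in 10.4% and 18.01% and the neutrophil list in 6.30% and 4.27%. No Diverse cell was called for the B cell, plasmacytoid dendritic cell, mast cell or erythroid list, although all of these but erythroid cells are cell types among the other names. Elsewhere in the libraries, 10 cells had T and B calls, 15 had B and monocyte/macrophage calls, 14 had T and plasmacytoid calls and 25 had monocyte/macrophage and plasmacytoid calls, and none of these was named Diverse. The name thus covered the pairing of T or NK cells with monocytes, macrophages or dendritic cells, not every pairing present.

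Diverse cells were among the richest in RNA. They had a median of 11780.5 UMIs (quartiles 9447.5 and 14577.8) in APOE4 and 11743 (8640 and 15029) in APOE2. These were 3.36 and 3.38 times the T cell median and 1.68 and 1.49 times the monocyte and macrophage median. The sum of the T cell and the monocyte and macrophage medians was 10543 UMIs in APOE4 and 11369 in APOE2, so that the Diverse median stood at 1.12 and 1.03 times this sum. Detected genes numbered 3450.5 and 3418 per Diverse cell, against 1622.5 and 1605 per T cell and 2360 and 2527 per monocyte or macrophage. At an equal depth of 1500 UMIs the medians were 895 and 881 genes in Diverse cells, 875.5 and 877 in T cells and 845 and 836 in monocytes and macrophages. Median mitochondrial shares of UMIs were 3.02% and 3.83% in Diverse cells, against 3.71% and 4.09% in T cells and 3.09% and 4.03% in monocytes and macrophages. On depth the name ranked 5th of 26 in APOE4 and 6th in APOE2, so it was not the deepest. A doublet score from Scrublet, which measures how far a cell's neighbors are sums of 2 cells made by the tool, had medians of 0.122 and 0.105 in Diverse cells, against 0.0243 and 0.0276 over all annotated cells. The Diverse median ranked 2 of 26 in APOE4 and 1 of 26 in APOE2, although the tool's own threshold marked no Diverse cell.

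Each cell was also fitted as a sum of the mean profiles of the T, NK, B, monocyte/macrophage, MDSC, dendritic and plasmacytoid classes of its own library. The lymphoid part made up a median of 30.7% of fitted UMIs in APOE4 Diverse cells (quartiles 24.3 and 39.8) and 32.0% in APOE2 (24.3 and 41.6). In UMIs this was a median of 3667 and 3606, against 3510 and 3474 for whole T cells. The myeloid part was 7622 and 7959 UMIs, against 7033 and 7895 for whole monocytes and macrophages. The median of each part was thus near the median of the class set beside it. These are unlike quantities, since the lymphoid part also holds NK and B profiles. The myeloid part also holds MDSC, dendritic and plasmacytoid profiles. The lymphoid part lay between 10% and 60% in 261 of 270 and 204 of 211 Diverse cells, but in 0.330% and 0.465% of T cells. The same range held 16.9% and 19.3% of monocytes and macrophages and 27.9% and 23.5% of dendritic cells. Several names with no profile of their own in this fit also fell into the range. It held 88.2% and 95.3% of stromal cells, 87.5% and 100% of skin resident Mø, 84.2% and 47.6% of Monocytic DCs, 81.8% and 100% of basophils and, among mast cells, 4.17% in APOE4 and 77.1% in APOE2. A lymphoid part in this range was therefore not particular to Diverse cells. Over all Diverse cells the fitted UMIs fell to monocytes and macrophages (54.1% and 44.5%), T cells (23.5% and 22.7%), dendritic cells (11.6% and 20.7%) and NK cells (6.01% and 6.68%).

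**Figure D2:**
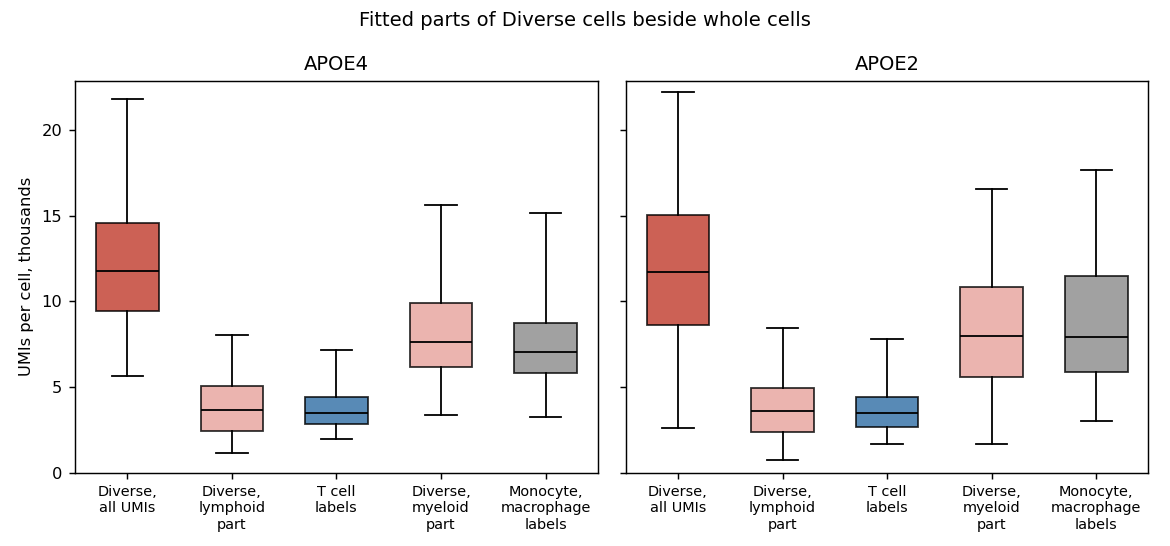
UMIs per cell (in units of 1000) for Diverse cells, their fitted lymphoid and myeloid parts (pink), whole T cells (blue) and whole monocytes and macrophages (grey), in APOE4 (left) and APOE2 (right); boxes give quartiles and medians and whiskers the 5th and 95th percentiles. The lymphoid part has medians of 3667 and 3606 UMIs beside 3510 and 3474 in whole T cells.

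The same fit with single names in place of classes gave each Diverse cell a leading lymphoid and a leading myeloid partner. In APOE4 the lymphoid partner was a CD8+ T cell in 132 cells, a CD4+ T cell in 75, an NKT cell in 25, an NK cell in 36 and a Ki67+ CD8+ T cell in 2. In APOE2 it was a CD4+ T cell in 129 cells, a CD8+ T cell in 41, an NKT cell in 17, an NK cell in 20, a Ki67+ CD8+ T cell in 3 and a B cell in 1. Thus CD8+ partners led in APOE4 and CD4+ partners in APOE2. CD8+ partners made up 48.9% (42.8 to 55.0) of APOE4 and 19.4% (14.3 to 25.4) of APOE2 Diverse cells, beside CD8+ T cells at 26.6% and 14.8% of the libraries' lymphoid cells. CD4+ partners made up 27.8% and 61.1%, beside 16.9% and 31.0%. The order of the partners followed that of the T cell names in each library, in which CD8+ cells outnumbered CD4+ cells in APOE4 and not in APOE2.

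Genes that mark the T cell subsets followed the fitted partner. Foxp3 was detected in 52.0% and 68.2% of cells with a CD4+ partner, but in 2.27% and 2.44% of those with a CD8+ partner. Cd8a, a chain of the CD8 coreceptor, was detected in 88.6% and 46.3% of cells with a CD8+ partner, and in 9 of 75 and 3 of 129 of those with a CD4+ partner. These genes were part of the profiles, so the shares describe the fit and do not check it independently. Foxp3 and Cd8a were found together in 8 APOE4 and 4 APOE2 Diverse cells.

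NK cluster 2, cycling CD8+ T cells and MDSCs were rarer as partners than in the libraries. NK cells made up 41.6% (APOE4) and 32.3% (APOE2) of lymphoid cells outside Diverse, but 13.3% and 9.48% of partners, ratios of 0.321 (0.236 to 0.437) and 0.293 (0.191 to 0.450). By name the ratios were 0.210 and 0.254 for NK cluster 2 but 0.939 and 0.549 for NK cluster 1, which was a partner in 5.93% of APOE4 Diverse cells beside 6.31% of lymphoid cells. Ki67+ CD8+ T cells had ratios of 0.179 and 0.213. MDSCs made up 24.6% and 20.1% of myeloid cells but 0 of 270 and 1 of 211 partners. MDSCs are shallow here, with a median of 1682 UMIs in APOE4. Monocytes were the partner in 58.9% and 49.8% of Diverse cells, beside 35.3% and 22.4% of myeloid cells in the libraries, and macrophages in 31.9% and 28.9%, beside 12.5% and 24.4%. Conventional and migratory dendritic cells were the partner in 9.26% and 19.9%, beside 16.2% and 20.6% of myeloid cells. All of these partners were cDC 2, which made up 8.95% and 11.4% of myeloid cells. Among cells with a CD4+ partner the cDC 2 share was 22.7% and 25.6% (18.3 to 34.0 in APOE2). Among cells with a CD8+ partner it was 3.79% and 12.2%. The APOE2 value was 5 of 41 cells (4.08 to 26.2), an interval that overlaps that of CD4+ partners in APOE2. The most frequent pairs were CD8+ T cell with Monocytes 2 (46 cells) in APOE4 and CD4+ T cell with Monocytes 1 (39 cells) in APOE2. A fit of each cell to its likeliest single pair gave the same lymphoid partner in 93.3% and 93.4% of cells and the same myeloid partner in 85.6% and 84.4%.

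**Figure D3:**
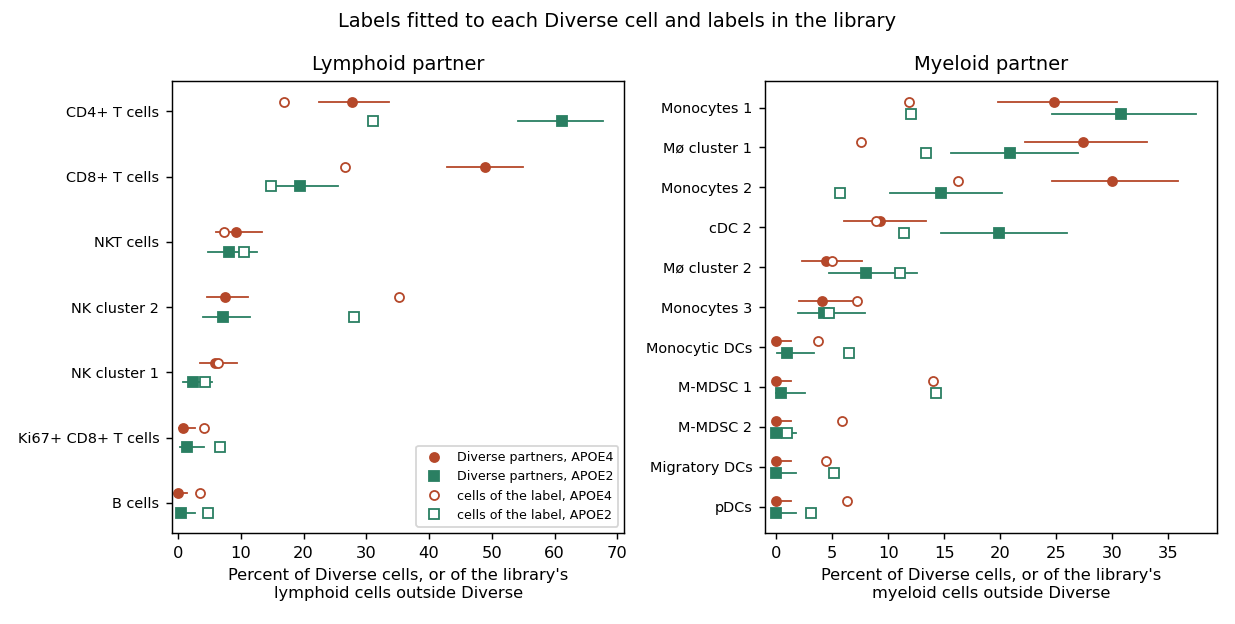
Percent of Diverse cells with each name as their leading fitted partner (filled, with exact 95% intervals) and percent of the library's lymphoid (left) or myeloid (right) cells outside Diverse that carry the name (open), for APOE4 (circles) and APOE2 (squares). Names shown were a partner at least once or made up over 5% of a library's side; CD8+ partners lead in APOE4 (48.9%) and CD4+ partners in APOE2 (61.1%).

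Diverse cells had almost no genes of their own. Of 7958 genes with at least 50 UMIs in Diverse cells, 9 (0.113%) were more than 2-fold above both T cells and monocytes and macrophages in both libraries, and no gene was more than 2-fold below both. The genes that stood highest were instead genes of dendritic or NK cells. Plet1 reached 2.999 and 41.2 CPM (UMIs of the gene per 1000000 UMIs of the class) in Diverse cells but 256 and 474 CPM in dendritic cells. Flt3, the growth factor receptor of dendritic cells, reached 9.30 and 11.0 CPM against 178 and 172 CPM in dendritic cells. The NK receptor genes Klra4 and Klra8 reached 25.2 and 18.4 CPM and 22.5 and 22.3 CPM. In NK cells they reached 830 and 543 CPM and 727 and 396 CPM. Cdh1, Siglecg, Ffar2, H2-Oa and Ctnnd2 were likewise higher in dendritic cells, as were H2-Ob and H2-DMb2, and Klrb1b in NK cells. Against the highest of all names in place of these classes, no gene was past 2-fold, nor was any with at least 200 UMIs. Of the 7958 genes, 4895 (61.5%) lay between the T cell and the monocyte and macrophage level in both libraries, and 7874 (98.9%) did so when 1.5-fold outside was allowed. Genes at least 4-fold higher in T cells (445) stood at a median of 41.3% and 39.9% of their T cell CPM, and the 663 genes at least 4-fold higher in monocytes and macrophages at 66.6% and 66.8% of theirs.

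Counted per cell in place of CPM, a mean Diverse cell came close to 1 mean T cell plus 1 mean monocyte or macrophage. It held 12350.8 UMIs in APOE4 and 12087.7 in APOE2, against sums of 11658 and 12914.9. Of the 7958 genes, 7901 (99.3%) and 7859 (98.8%) lay within 2-fold of the sum. In APOE4 0.327% of genes were more than 2-fold higher and 0.39% more than 2-fold lower, and in APOE2 0.465% and 0.779%. None of the 8 T cell list genes and none of the 10 monocyte/macrophage list genes was past 2-fold in either library, with list medians of 0.06 and -0.20 (T) and 0.00 and -0.62 (monocyte/macrophage) on the log2 scale. The NK list had 4 of 8 genes more than 2-fold higher in each library and the dendritic cell list 3 of 5. Neither class is in the sum, and the part of NK or dendritic cells in these levels was not tested.

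Measured genes of engulfment and digestion that were past 2-fold from the sum lay below it. Over all 7958 genes with at least 50 UMIs, the share more than 2-fold lower was 0.39% (APOE4) and 0.779% (APOE2). Both lists held larger shares, but over few genes and counted from a lower minimum of 20 UMIs. No share over all genes was taken at that minimum, so the excess was not tested. Of 15 engulfment genes with at least 20 UMIs, none was more than 2-fold higher in either library, and 1 (APOE4) and 3 (APOE2) were more than 2-fold lower, with list medians of -0.02 and -0.13. The uptake receptor Axl averaged 2.57 and 1.498 UMIs per Diverse cell, against 1.62 and 1.37 per monocyte or macrophage and 0.0396 and 0.0535 per T cell, which put it 0.64 and 0.08 above the sum on the log2 scale. The related receptor Mertk averaged 0.170 and 0.270 UMIs per Diverse cell against 0.223 and 0.509 per monocyte or macrophage, and their bridging ligand Gas6 0.0111 and 0.0995 against 0.175 and 0.853. Of 15 lysosomal genes none was more than 2-fold higher, and 1 and 3 were more than 2-fold lower, with list medians of -0.04 and -0.52. The protease Ctsb averaged 6.07 and 6.18 UMIs per Diverse cell, against 7.69 and 14.3 per monocyte or macrophage. The lysosomal membrane gene Cd63 averaged 0.622 and 1.56, against 1.43 and 3.83.

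Several macrophage genes that were low in Diverse cells were low in the Monocytes names as well and higher in Mø cluster 2. Retnla had 0 UMIs in the 270 APOE4 Diverse cells and 4 in the 211 APOE2 Diverse cells. It averaged 5.12 and 17.9 UMIs per cell in Mø cluster 2 and at most 0.0266 in any Monocytes name. In Mø cluster 1 it was low as well, at 0 and 0.141. Folr2, a folate receptor of tissue macrophages, averaged 0.0630 and 0.294 per Diverse cell. It averaged 2.74 and 4.49 in Mø cluster 2 and 0.494 and 1.62 in Mø cluster 1. The scavenger receptor Stab1 averaged 0.278 and 0.626 per Diverse cell, against 1.54 and 4.29 in Mø cluster 1 and 1.47 and 1.36 in Mø cluster 2. Mø cluster 1 was the fitted partner of 74 APOE4 and 44 APOE2 Diverse cells, and Mø cluster 2 of 12 and 17.

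Genes of antigen presentation through MHC class II were above the sum by less than 2-fold in most cases, with 0 (APOE4) and 1 (APOE2) of 7 genes past 2-fold higher. That gene was Ciita, the class II transactivator, named after its values were seen. The 7 genes of the list together averaged 331 and 354 UMIs per Diverse cell, against 213 and 233 per monocyte or macrophage and 1.58 and 3.24 per T cell, with list medians of 0.64 and 0.62 over the sum. The invariant chain Cd74 averaged 129 and 151 UMIs against 84.1 and 103 in monocytes and macrophages, and H2-Ab1 65.4 and 63.8 against 41.6 and 40.4. Dendritic profiles, which are not in the sum, took 11.6% and 20.7% of the fitted UMIs of Diverse cells, and their part in the MHC class II level was not tested. Genes of contact between T cells and antigen-presenting cells lay at the sum, with list medians of 0.20 and 0.05 and 0 of 13 genes past 2-fold. The costimulatory ligand Cd86 averaged 3.53 and 2.53 UMIs per Diverse cell against 2.47 and 2.05 per monocyte or macrophage, and its T cell receptor Cd28 averaged 2.33 and 1.98 against 1.97 and 2.005 per T cell. Proliferation genes had list medians of 0.04 and -0.04. Of 10 melanocyte and melanoma genes, 8 (Mlana, Pmel, Dct, Tyrp1, Tyr, Sox10, S100b and Mcam) had no UMI in any Diverse cell. The other two were detected, Mitf with 50 UMIs in APOE4 and 36 in APOE2 Diverse cells and Ednrb with 6 and 48. Mitf averaged 0.185 and 0.171 UMIs per Diverse cell, against 0.190 and 0.296 per monocyte or macrophage.

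**Figure D4:**
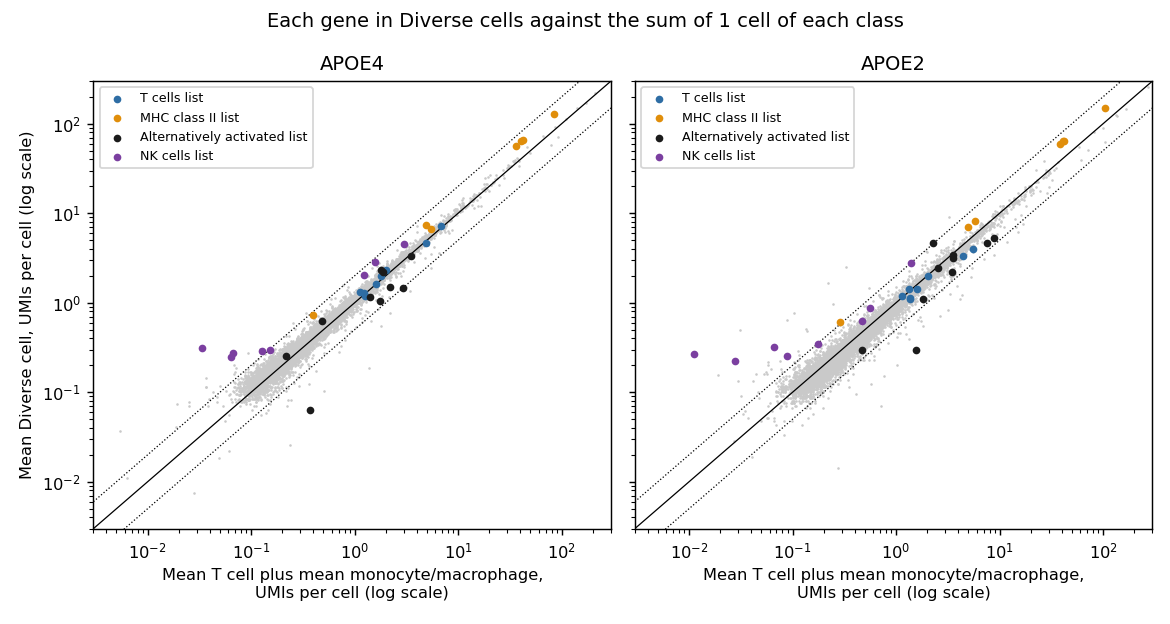
Each gene with at least 50 UMIs in Diverse cells, as mean UMIs per Diverse cell (y axis) against the sum of a mean T cell and a mean monocyte or macrophage (x axis), both on log scales, in APOE4 (left) and APOE2 (right). The solid line marks equality and the dotted lines 2-fold; T cell genes lie near the solid line, MHC class II genes above it but mostly within 2-fold, part of the NK list far above it, and several alternatively activated macrophage genes below it.

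Diverse cells made up a like share of both libraries. The name covered 5.01% (4.45 to 5.63) of annotated APOE4 cells and 4.52% (3.94 to 5.16) of annotated APOE2 cells, a ratio of 1.11 (0.930 to 1.32). T cells, in contrast, had a ratio of 1.83, NK cells 2.61, monocytes and macrophages 0.795 and dendritic cells 0.615. With 1 library per genotype these ratios compare libraries and not genotypes. On the authors' map the Diverse median lay nearest to those of Monocytes 2 and Monocytes 1, followed by both Mø clusters and Ki67+ CD8+ T cells.

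Between the libraries, Diverse cells differed in genes of the T cell subset and of interferon response. Of the 7958 genes with at least 50 UMIs, 203 (2.55%) were more than 2-fold higher and 153 (1.92%) more than 2-fold lower in APOE4 than in APOE2, so that 57.0% of the differing genes were higher in APOE4. This split was 68.6% with at least 200 UMIs per gene, 69.7% with cells thinned to 1500 UMIs and 53.4% (191 higher and 167 lower) with trimmed scaling in place of class totals. The median over all genes was 0.01 on the log2 scale. For the lists below, which count genes with at least 20 UMIs, 3.22% of 9627 genes were more than 2-fold higher and 3.38% more than 2-fold lower.

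All 20 type I interferon genes were higher in APOE4 Diverse cells, 18 of them by more than 2-fold, with a list median of 1.74 (1.29 to 1.96, an interval over the genes). Irf7, a transcription factor that amplifies interferon production, had 2577 UMIs in APOE4 and 490 in APOE2 Diverse cells and was detected in 94.1% and 57.3% of them, a ratio of CPM of 4.02 (3.65 to 4.44). Isg15, a ubiquitin-like modifier, had 3768 and 812 UMIs, a ratio of 3.55. All 16 interferon gamma genes were higher as well, 9 by more than 2-fold, with a median of 1.17. They included the T cell-attracting chemokines Cxcl9 (1473 against 271 UMIs, ratio 4.16) and Cxcl10 (3048 against 560, ratio 4.16). The 12 MHC class I genes had a median of 0.59 and none was past 2-fold. T cells showed lower medians for these lists (0.87, 0.50 and 0.14), and monocytes and macrophages higher ones (1.87, 1.83 and 0.97), so that Diverse cells lay between. Each class was counted over its own genes with at least 20 UMIs, which left 14 interferon gamma genes in T cells.

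Listed genes of cytotoxic T cells were higher and those of regulatory T cells lower in APOE4 Diverse cells. Of 7 cytotoxic genes 6 were more than 2-fold higher, with a median of 1.48. The granzyme Gzmc, which is not in the list, was lower, with 38 UMIs in APOE4 and 528 in APOE2 Diverse cells. Its ratio was 0.0550 (0.0385 to 0.0766), beside 0.249 in T cells and 0.0491 in NK cells. Ifng, the cytokine interferon gamma, had 347 UMIs in APOE4 and 36 in APOE2 Diverse cells, a ratio of 7.37 (5.22 to 10.7), and Nkg7, a cytotoxic granule gene, 2479 and 677, a ratio of 2.80. Cd8a had 592 and 69 UMIs, a ratio of 6.56 (5.11 to 8.55). All 6 regulatory T cell genes were lower, 3 by more than 2-fold, with a median of -1.06. Foxp3 had 101 UMIs in APOE4 and 235 in APOE2 Diverse cells, and was detected in 16.3% and 43.6% of them, a ratio of 0.329 (0.258 to 0.417). Ctla4, an inhibitory receptor, had 871 and 1085 UMIs, a ratio of 0.614. In T cells the cytotoxic and regulatory medians were 1.34 and -0.88, and Foxp3 was detected in 13.3% and 33.5% of them. The shift in Diverse cells was thus in the direction and of about the size seen in T cells, whose CD8+ share also differed between the libraries. The T cell list itself had a median of 0.31 and no gene past 2-fold, and of the 7 exhaustion genes only Lag3 (303 against 59 UMIs, ratio 3.93) was past 2-fold.

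On the myeloid side, alternatively activated macrophage genes were lower in APOE4 Diverse cells, with 5 of 11 more than 2-fold lower and a median of -0.93. Arg1, which consumes arginine, had 402 UMIs in APOE4 and 1120 in APOE2 Diverse cells, a ratio of 0.275 (0.244 to 0.308). The mannose receptor Mrc1 had 285 and 970 UMIs, a ratio of 0.225 (0.196 to 0.257). The list median was -1.80 in monocytes and macrophages, over the 13 genes with at least 20 UMIs there. The monocyte list was split, with 2 of 5 genes more than 2-fold higher, 1 more than 2-fold lower and a median of -0.28 (-1.75 to 2.29). Its member Ly6c2, a surface marker of inflammatory monocytes, had 5088 and 798 UMIs, a ratio of 4.88 (4.52 to 5.26). It was not limited to myeloid cells, with 1333 and 538 CPM in T cells (ratio 2.48). Monocytes and macrophages had 1784 and 292 CPM (ratio 6.12), and the part of each side in the Diverse difference was not tested. Of the monocyte/macrophage list 3 of 10 genes were higher and 7 lower, with a median of -0.19. All 7 macrophage list genes were lower, with a median of -0.35. Fcgr1 was among the higher genes, with 1443 and 666 UMIs, a ratio of 1.66. Lyz2 differed little, with 18963 and 13174 UMIs, a ratio of 1.10. The dendritic cell list had 3 of 5 genes more than 2-fold lower, with a median of -1.16; Cd209a, a lectin of cDC 2, had 79 and 355 UMIs, a ratio of 0.170. The MHC class II list had a median of -0.02, the lysosomal list -0.09, the engulfment list -0.39 and the contact list 0.09. Of the 15 engulfment genes 2 were more than 2-fold lower and none more than 2-fold higher.

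**Figure D5:**
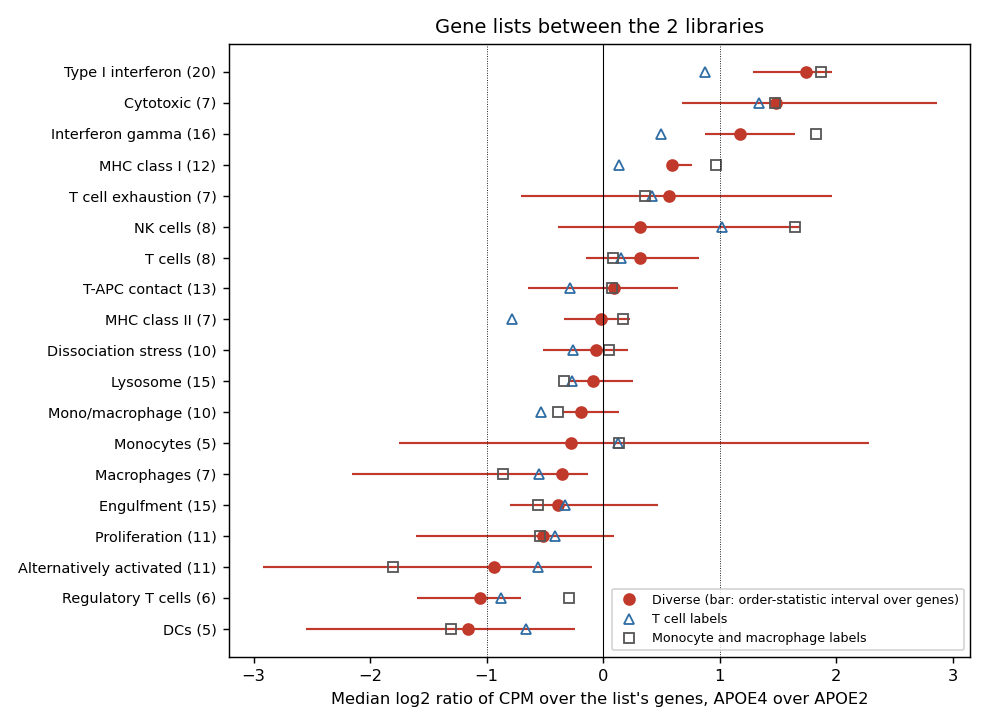
Median log2 ratio of CPM, APOE4 over APOE2, over the genes of each list with at least 20 UMIs in the class shown. Diverse cells are filled, with an interval of the median over genes and their number of genes in parentheses. T cells are triangles and monocytes and macrophages squares, each over its own set of genes. Dotted lines mark 2-fold; type I interferon (1.74) and cytotoxic (1.48) lists are highest, and regulatory T cell (-1.06) and dendritic cell (-1.16) lists lowest.

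The genes that differed most were of several kinds. Higher in APOE4 Diverse cells were Pydc3, an interferon-inducible gene of the pyrin domain family (265 UMIs in APOE4 against 15 in APOE2, ratio 13.5, 8.04 to 24.5), Ly6i (1131 against 88, ratio 9.83), Dnase1l3 (115 against 10, ratio 8.80), Gm29243 (60 against 4, ratio 11.5) and the complement gene C3 (683 against 112, ratio 4.66). Vcam1 also ranked among them with 68 UMIs in APOE4 against 3 in APOE2 (ratio 17.3, 5.69 to 86.1), but 36 of the 68 came from 1 cell. Lower in APOE4 were the dendritic cell genes Ccl17 and Plet1. Ccl17 had 2 UMIs in APOE4 and 164 in APOE2, a ratio of 0.00933 (0.00112 to 0.0342), and Plet1 had 10 and 105. Mgl2 (169 in APOE4 against 982 in APOE2), Ear2 (7 against 104) and Dcstamp (5 against 103), genes of macrophages or dendritic cells in these libraries, were lower as well. Some of these differences rested on few cells. Of the 10 UMIs of Dnase1l3 in APOE2 Diverse cells 7 came from 1 cell. Of the 528 UMIs of Gzmc, a granzyme, in APOE2 Diverse cells 219 came from 1 cell, and of the 41 UMIs of the chemokine Cxcl3 in APOE4 34 came from 1 cell. With cells thinned to 1500 UMIs the log2 ratios were 1.22 for Vcam1 (3.90 with all UMIs), 1.79 for Dnase1l3 (3.07), 2.90 for Pydc3 (3.71) and -2.13 for Dcstamp (-4.62), and in the cells with both list calls alone that of Plet1 was -5.56 (-3.72).

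A few genes were at or near 0 in APOE4 in every class examined. Gm26740, an antisense gene on chromosome 10 (22187013 to 22302835), had 0 UMIs in APOE4 and 281 in APOE2 Diverse cells. Against a floor of 3 UMIs this is 122-fold lower, and the exact interval allows as little as 98.9-fold. It also had 0 UMIs in APOE4 T cells, NK cells, monocytes and macrophages and dendritic cells, against 489, 84, 789 and 428 in APOE2. Gm20186, a long intergenic RNA on chromosome 6 (18845910 to 18848207), had 0 UMIs in APOE4 and 93 in APOE2 Diverse cells. This is 40.5-fold lower against the same floor, and the exact interval allows as little as 32.3-fold. Gm20186 had 2 UMIs in APOE4 T cells against 144 in APOE2 T cells. Erdr1 had 3 UMIs in APOE4 and 55 in APOE2 Diverse cells, a ratio of 0.0417 (0.00835 to 0.128), and 4 and 47 in T cells.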

How the data were processed

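Leukocytes were measured by 10x droplet sequencing with 3' v3 chemistry, with 1 library per genotype. The authors deposited unscaled UMI counts for every gene in every barcode, from Cell Ranger and build mm10 per the submitters' processing notes and software version 3.0.1 per the file headers. Their deposited cell table lists library, name, UMI count, percent of mitochondrial UMIs and map coordinates, which are scores without a unit; the submitters' processing notes list Seurat 3.0.2. How cells were named, whether counting used strand and whether doublets were taken out before deposit is not given in the sources used here. Cells were joined by barcode and library, with no further filter; for 97.6% (APOE4) and 96.8% (APOE2) of cells the matrix sum was within 5 UMIs of the table's.

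A marker list was called with at least 3 UMIs of at least 2 members. Each cell was fitted by non-negative least squares on class or name profiles of its library, with genes weighted by the inverse root of their mean. Expression was summed UMIs in CPM of a class; log2 ratios had 0.5 UMIs added, a fold meant more than 2-fold, and genes needed at least 50 UMIs (20 for list members). Ratios of UMIs carry exact conditional binomial intervals (95%), ratios of cell shares the interval of the log ratio, and a count of 0 a floor of 3. Lists hold textbook markers; Trac, Trbc2, Trdc, Tcrg-C1, Trdv4 and Ighm were not matched among the 27998 genes and were not used here. Named genes were the list members, the 10 highest and 10 lowest ratios by the bound nearest 1, and the 12 genes highest above both classes, leaving out ribosomal, mitochondrial, sex-linked, hemoglobin and receptor segment genes. Members and lists were chosen with earlier results of these data known. Closely related genes (Ly6, Klra, granzymes) and the antisense gene Gm26740 may share reads with other genes. Python 3.11.15 with NumPy 2.4.6, SciPy 1.17.1 and pandas 2.3.3 was used; scripts were tested on simulated data. A doublet caller (Scrublet in Scanpy 1.11.5) marked 3 APOE4 cells and 0 APOE2 cells, which is too few to have worked, so its calls were not used and its scores are given as a description.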

Additional observations from a re-analysis of the deposited data

Results flagged for a closer look

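Barcodes that the authors left without a name also held cells with both lineages. With the same list calls, 8 of 304 unnamed barcodes in APOE4 (2.63%) and 14 of 398 in APOE2 (3.52%) had T cell and monocyte/macrophage calls, above the 0.987% and 0.754% that a count of 0 allows. Among annotated cells outside Diverse the shares were 3.36% and 3.21%, which lie within the intervals of the unnamed barcodes (1.14 to 5.12% and 1.94 to 5.83%). Unnamed barcodes with at least 6000 genes had a median of 44153 UMIs in APOE4 and 39744.5 in APOE2, and there both calls were found in 3 of 15 in APOE4 and 6 of 22 (27.3%) in APOE2. The deepest Diverse cells held 34225 UMIs in APOE4 and 27404 in APOE2.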

How the results depend on the processing

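With 1 library per genotype none could be left out. No paired analysis was possible because the libraries carry no replicate numbers. Among the named genes, only those with the highest and lowest ratios between the libraries were rerun under alternatives, and none of these changed sign. The other named genes were not rerun, so their stability was not tested. No list median whose interval excluded 0 changed sign under the alternatives run. The share of Diverse cells with both lineages was 97.8% (APOE4) and 98.6% (APOE2) with 1 UMI of 1 member of each list, 83.7% and 76.8% with 5 UMIs of 3 members, 42.3% and 28.4% with cells thinned to 1500 UMIs, and 43.0% and 51.7% with C1qa, C1qb and C1qc as the myeloid list. Counted as genes, the depth of Diverse cells was 2.13 and 2.13 times that of T cells and 1.46 and 1.35 times that of monocytes and macrophages. The median lymphoid part was 29.3% and 29.3% with profiles of single names, and 33.5% in APOE4 with profiles of both libraries. Genes above both classes numbered 0 with at least 200 UMIs, 15 at 1.5-fold and 0 against the highest name. Genes more than 2-fold higher and lower in APOE4 numbered 118 and 54 with at least 200 UMIs, and 99 and 43 with cells thinned to 1500 UMIs, where fewer genes were measured. With cells weighted equally the MHC class I median was 0.54, and 2 medians whose intervals included 0 had the other sign, MHC class II at 0.07 and neutrophils at 0.14. Dendritic partners made up 5.19% of APOE4 Diverse cells in the fit to pairs, an alternative chosen after seeing the data. The cause of these moves was not tested except where stated. Depth limits the single genes that can be compared: at 1500 UMIs per cell, 2370 of the 7958 genes reached 50 UMIs.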
